A study of Mus musculus with 10 samples.

Results

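The mitochondrial ribosomal protein genes were taken as every gene of the deposited table whose symbol begins with Mrps or Mrpl followed by a number, without pseudogene names. The rule found 76 of 14738 genes, 28 named for the small subunit and 48 for the large subunit. It used names alone and no measured value. Bulk RNA sequencing had been done on regulatory T (Treg) cells from the spleens of mixed bone-marrow chimeras, mice whose blood cells grow from a mixture of marrows. Each recipient had received CD45.1+ marrow mixed equally with marrow of the tested genotype, and the cells sorted were CD4+, Foxp3-YFP+, CD45.2+ and CD45.1-, so they came from the tested marrow. That marrow was either Foxp3Cre (here WT, 5 libraries) or Foxp3CreFlcnfl/fl (here Flcn KO, 5 libraries).

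Both groups therefore carried the Cre transgene, which is driven by Foxp3 and so acts in Foxp3-expressing cells, and they differed in the loxP-flanked Flcn alleles. Flcn encodes folliculin, a regulator of nutrient signalling through mTORC1 and of the transcription factors TFEB and TFE3. The sources used here give neither ages nor sexes of the mice, nor whether animals were pooled. The series describes the 5 libraries of each group as biological replicates.

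The mitochondrial ribosome translates the few proteins encoded by mitochondrial DNA, all of them subunits of the respiratory chain and ATP synthase. Its 2 rRNAs are transcribed from mitochondrial DNA, while all of its proteins are encoded in the nucleus, made in the cytosol and imported. The small subunit reads the mRNA, and the large subunit joins amino acids and feeds the new chain through an exit tunnel towards the inner membrane. Many of the proteins have bacterial counterparts, and others are found only in mitochondria. Treg cells are known to rely on oxidative phosphorylation, which needs this translation.

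The subunit letter in a symbol does not always give the place of the protein. In solved structures of the mammalian mitochondrial ribosome the products of Mrps30 and Mrps18a lie in the large subunit. The product of Mrps36 is now assigned to the 2-oxoglutarate dehydrogenase complex and not to the ribosome. Symbols were kept for the counts below. With genes placed by structure, 25 fell in the small and 50 in the large subunit, and the medians of the log2 fold change were 0.04 and 0.11. Mrpl53 and Mrps34 were not analysed here.

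The libraries held 1914516 to 4153854 reads in the table, and 1887 to 4158 of these, or 0.0737% to 0.105%, lay in the 76 genes. WT replicate 1 stood apart. Mitochondrial rRNA took 44.1% of its reads, against 24.7% to 26.6% in the other WT libraries and 24.8% to 31.8% in the Flcn KO libraries, so results are also given without it where it mattered. Normalized counts of Flcn were 54.2 ± 13.8 (SD, n = 5) in WT and 138 ± 14.4 (SD, n = 5) in Flcn KO libraries, with no overlap (exact two-sided permutation test, p = 0.00794, the smallest that 252 splits allow). Reads summed over a gene do not show whether the floxed part is missing, so these values do not check the deletion, and the groups are called by their labels. Foxp3, the factor that defines Treg cells, was at 1283 ± 64.1 and 1207 ± 99.97 (SD, n = 5 each; limma adjusted p = 0.790). Of the 7 Treg and T-cell markers listed, limma called 1 higher, Il2ra, at 2070 to 2457 in WT and 3043 to 3373 in Flcn KO, and 1 lower, Ikzf2, at 3528 to 4316 and 2632 to 2850. Over all tested genes it called 0.944% higher and 0.768% lower. Ctla4 and Cd3g were below all WT values in every Flcn KO library and were not called by limma (adjusted p = 0.106 and 0.247), though DESeq2 called both lower; Cd4 and Cd3e overlapped. All 11 B-cell markers were detected, with summed normalized counts of 1227 to 1437 in WT and 1398 to 2783 in Flcn KO libraries. Most of each sum was Ighm, at 1023 to 1262 and 1153 to 2378, and the 2783 was that of Flcn KO replicate 3. For 10 of the 11 the limma estimate was positive, beside 50.6% of all tested genes, with a median log2 fold change of 0.52. Of the 11, 3 were higher at an unadjusted limma p under 0.05, beside 14.0% of all tested genes in either direction, and 0 were called. Of the myeloid markers 8 of 10 were measured, with sums of 78.0 to 260 and 130 to 316. The part of these other cells in the results below was not tested, and in bulk samples a smaller share of cells and less RNA per cell cannot be told apart.

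No mitochondrial ribosomal protein gene passed the test between Flcn KO and WT Treg cells. Values were compared with limma on log2(normalized count + 1), with Benjamini-Hochberg adjustment over the 14723 genes tested, and 0 of 28 small-subunit and 0 of 48 large-subunit genes were called, where 1.71% of all tested genes were. All 76 passed the filter on low values. At an unadjusted p under 0.05 there were 8 of the 76 genes, or 10.53%, against 14.0% of all tested genes. Of these, 6 lay on the higher and 2 on the lower side in Flcn KO. The smallest adjusted p among the members was 0.151, for Mrpl33. edgeR on the recovered reads called 0 of the 70 members it tested, against a background of 5.64%, with 5 at an unadjusted p under 0.05, against 17.7% of the genes it tested. DESeq2 called 0 of 76, against 4.93%, with 6 at an unadjusted p under 0.05, against 14.8%. The authors' deposited table likewise has 0 of 76 at an adjusted p under 0.05, against 4.77% of its genes, and 6 at an unadjusted p under 0.05, against 14.5%.

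The estimates lay close to 0 on both sides. The median log2 fold change (Flcn KO over WT) was 0.05 over the small-subunit genes, ranging from -0.29 to 1.73, and 0.11 over the large-subunit genes, ranging from -0.52 to 0.84, beside 0.003 over all tested genes. The estimate was positive for 19 of 28 small-subunit and 33 of 48 large-subunit genes, together 52 of 76 or 68.4%, where 50.6% of all tested genes were positive. This count is a description with no test. It lay between 46 and 54 of 76 when each library was left out in turn, and was 52 without WT replicate 1. Without that library the median of the small-subunit genes was 0.13.

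**Figure D1:**
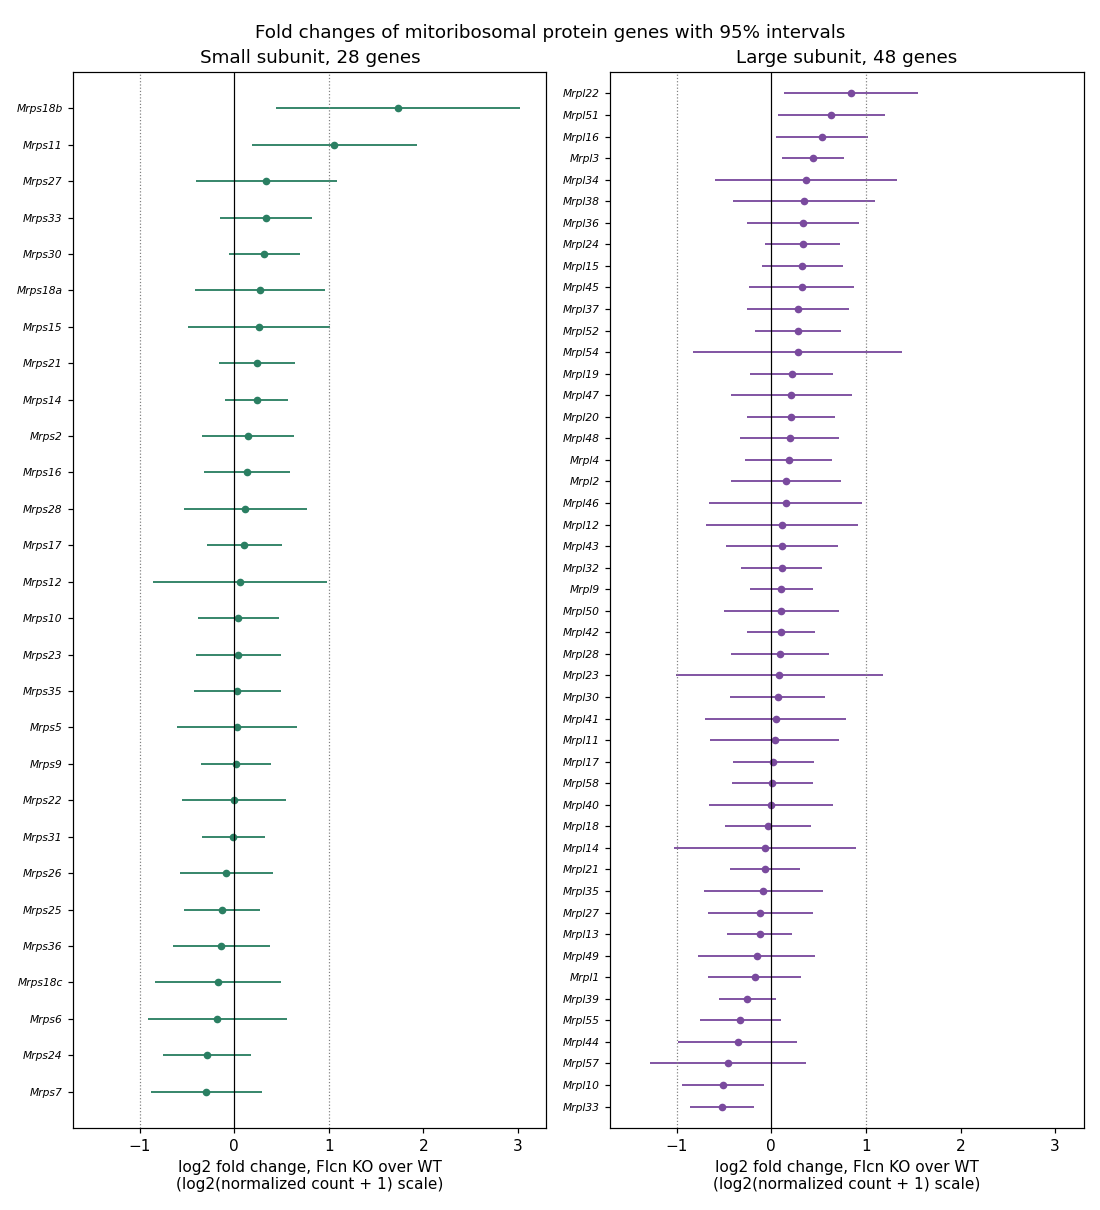
Log2 fold change (Flcn KO over WT, x axis) of each of the 76 genes, with points for the limma estimate and bars for its 95% confidence interval, small subunit and large subunit in separate panels. Most points lie within 0.5 of 0 and most intervals cross 0; Mrps18b and Mrps11 lie farthest to the right, with the widest intervals among the genes at the top.

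How large a change the libraries could have hidden differed between genes. The 95% confidence interval of the log2 fold change lay within -1 and 1 for 63 of 76 genes. That was 82.9%, against 60.5% of all tested genes. These limits stand for up to 2-fold either way in the normalized count + 1. The interval lay within 1.5-fold either way on that scale for 21 of the 76 genes. A similar share of all tested genes, 4347 of 14723, did so. The 13 genes with intervals beyond -1 or 1 were Mrpl14, Mrpl16, Mrpl22, Mrpl23, Mrpl34, Mrpl38, Mrpl51, Mrpl54, Mrpl57, Mrps11, Mrps15, Mrps18b and Mrps27. For low genes a limit of 1 on this scale is more than 2-fold in the count itself. A 2-fold difference in count was thus not excluded for Mrpl12, Mrps12 and Mrpl44 either. Their intervals were -0.69 to 0.92, -0.86 to 0.98 and -0.98 to 0.27. The variance within groups was a median of 2.16 times what counting alone gives, beside 2.33 in the 9088 tested genes at like levels. The mean normalized count per gene was 27.4 at the median, from 4.51 for Mrps18b to 111 for Mrps9, and 33 of the 76 lay above the median of the tested genes, which was 31.5.

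**Figure D2:**
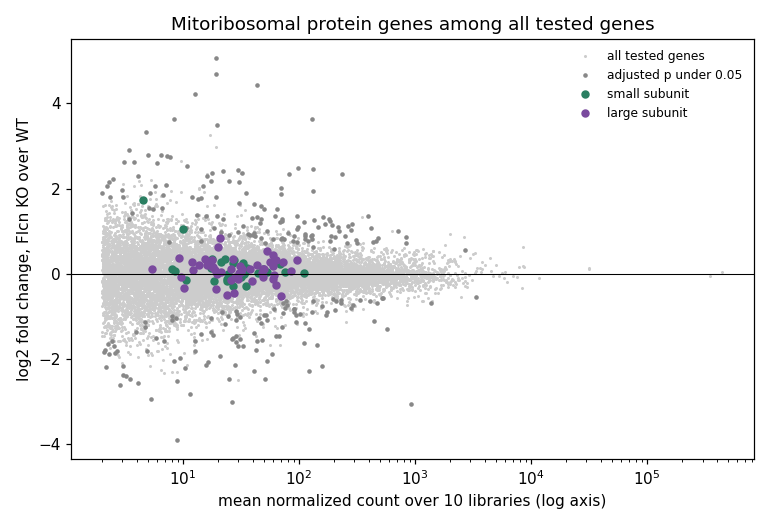
Log2 fold change (Flcn KO over WT, y axis) against the mean normalized count over the 10 libraries (x axis, log scale) for all 14723 tested genes (light grey), those with an adjusted p under 0.05 (dark grey), small-subunit genes (green) and large-subunit genes (purple). The 76 genes sit at low to middle levels between 4.51 and 111 and none lies among the called genes.

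Among large-subunit genes with bacterial counterparts, 30 in all, 20 estimates were positive and the median was 0.10. Mrpl3 encodes the counterpart of bacterial L3, an rRNA-binding protein of the core. Its normalized counts were 44.6, 45.6, 43.3, 58.9 and 61.9 in WT replicates 1 to 5. In Flcn KO replicates 1 to 5 they were 82.3, 63.3, 66.3, 64.4 and 67.8. Every Flcn KO library lay above every WT library, though the highest WT and the lowest Flcn KO value were close. The log2 fold change was 0.44 with an SE of 0.15 (limma adjusted p = 0.212), and it lay between 0.37 and 0.51 when single libraries were left out. Mrpl3 was the only 1 of the 76 genes whose groups did not overlap, against 2.47% of all tested genes higher in this way and 4.92% in either direction.

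Mrpl33, the counterpart of bacterial L33, had the lowest estimate of all 76 genes. Its normalized counts were 70.6, 82.6, 95.5, 90.6 and 75.6 in WT. They were 50.6, 71.1, 65.2, 47.6 and 55.2 in Flcn KO libraries. Only Flcn KO replicate 2 came up to the lowest WT library, and the other 4 lay below all WT values. Means were 83.0 ± 10.3 and 57.9 ± 9.92 (SD, n = 5 each), a log2 fold change of -0.52 with an SE of 0.15. This did not pass with limma (adjusted p = 0.151), nor with edgeR (0.0700), DESeq2 (0.0584) or in the authors' deposited table (0.0651).

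Mrpl16, the counterpart of bacterial L16 near the tRNA-binding side of the large subunit, had normalized counts of 38.4, 34.2, 49.7, 56.7 and 35.7 in WT. In Flcn KO libraries these were 89.2, 46.6, 72.9, 48.6 and 59.6. The groups overlapped, since replicates 2 and 4 of Flcn KO lay within the WT range and the other 3 above it. The log2 fold change was 0.54 with an SE of 0.22 (limma adjusted p = 0.310), and it was 0.40 without Flcn KO replicate 1, the library at 89.2. Mrpl15, a further gene of this class, ran from 60.7 to 99.3 in WT and from 89.2 to 154 in Flcn KO, with overlap and a log2 fold change of 0.33 (limma adjusted p = 0.506). That estimate was 0.19 without Flcn KO replicate 1, the library at 154, and 0.21 without WT replicate 1, the library at 60.7. Mrpl1 was at 41.3 in WT and 37.9 in Flcn KO, a log2 fold change of -0.18 (limma adjusted p = 0.794). Mrpl13 was at 62.2 in WT and 56.9 in Flcn KO, a log2 fold change of -0.12 (limma adjusted p = 0.798).

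**Figure D3:**
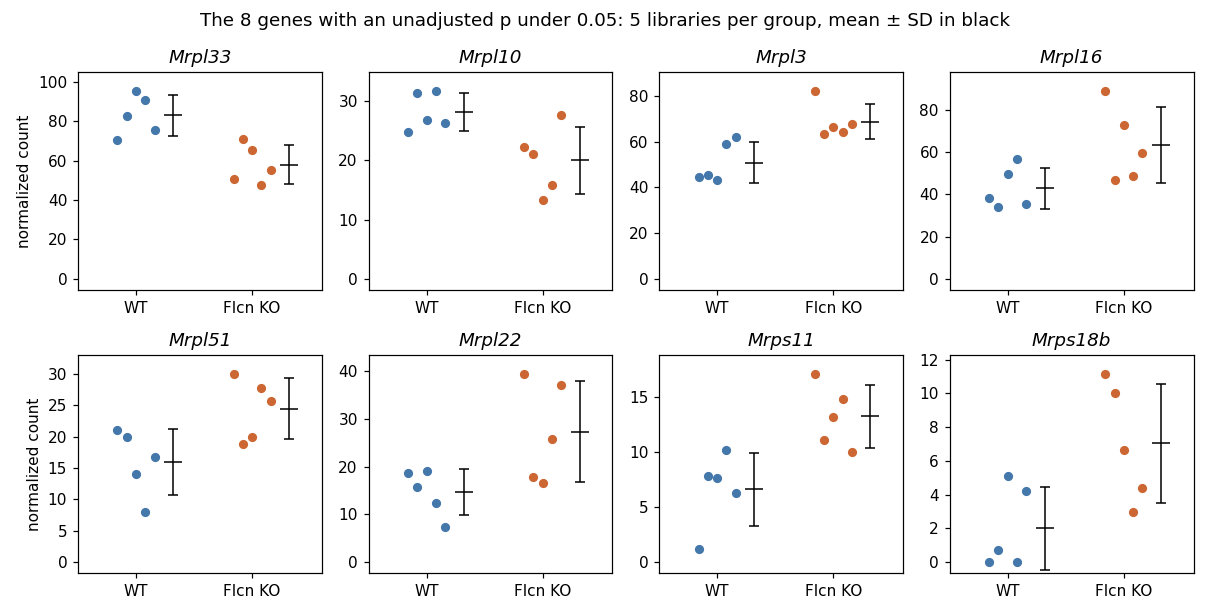
Normalized counts (y axis, linear) in each of the 5 WT and 5 Flcn KO libraries for the 8 genes with an unadjusted limma p under 0.05; points are libraries, and the horizontal mark and bar are the mean and SD of each group. The 2 groups are apart in Mrpl3 and overlap in the other 7, and the lower bar of WT Mrps18b reaches below 0 because its SD exceeds its mean.

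The stalk of the large subunit recruits translation factors. Mrpl10 encodes its base, Mrpl11 the protein beside it, and Mrpl12 the protein that binds the factors and is also known to bind the mitochondrial RNA polymerase. Mrpl10 had 24.8, 31.3, 26.7, 31.7 and 26.2 normalized counts in WT and 22.3, 21.1, 13.3, 15.9 and 27.6 in Flcn KO libraries. In 4 Flcn KO libraries the value was below all WT values, and in replicate 5 it was within their range. The log2 fold change was -0.51 with an SE of 0.19 (limma adjusted p = 0.271). Mrpl11 had an estimate of 0.04 and Mrpl12 of 0.12, both with intervals that cross 0, and Mrpl12 rested on mean normalized counts of 5.11 and 5.73. Summed over the 4 measured stalk genes, which include Mrpl54, normalized counts were 58.2 to 84.0 in WT and 45.6 to 83.5 in Flcn KO libraries, largely overlapping.

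Proteins around the exit of the nascent-chain tunnel include those encoded by Mrpl22, Mrpl23, Mrpl24 and Mrpl45, the last of which contacts the inner membrane. This list of 4 was made with earlier results known and does not hold every protein near the exit. All 4 limma estimates were positive, with a median of 0.33, and none passed. For Mrpl23 the sign depended on the test. Its normalized counts were 2.48 to 23.1 in WT and 6.94 to 17.8 in Flcn KO libraries, the mean was 12.7 and 11.7, and the log2 fold change was 0.08 with limma, -0.15 with edgeR and -0.14 with DESeq2. Mrpl22 had 18.6, 15.7, 19.1, 12.5 and 7.35 normalized counts in WT and 39.4, 17.8, 16.6, 25.8 and 37.0 in Flcn KO libraries. Replicates 2 and 3 of Flcn KO lay within the WT range and the other 3 above it, giving a log2 fold change of 0.84 with an SE of 0.32 (limma adjusted p = 0.264). That estimate was 0.63 without WT replicate 5, the library at 7.35. Mrpl45 ran from 11.5 to 21.0 in WT and from 10.7 to 26.5 in Flcn KO, and Mrpl24 from 37.2 to 71.4 and from 65.4 to 77.2. The Mrpl24 estimate of 0.33 was 0.19 without WT replicate 1. Summed over the 4 genes the normalized counts were 75.5 to 113 in WT and 118 to 153 in Flcn KO libraries and did not overlap. Without Mrpl24 they were 38.2 to 51.4 and 50.8 to 79.7 and did overlap. These sums over a few genes carry no test and depend on which genes were listed. For the 7 genes of the central protuberance, the crest of the large subunit, the median was 0.19 with 5 positive.

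Of the 18 large-subunit genes found only in mitochondria, 13 estimates were positive and the median was 0.11. Mrpl51 had 21.1, 19.9, 14.0, 7.93 and 16.8 normalized counts in WT and 30.0, 18.9, 19.9, 27.7 and 25.7 in Flcn KO libraries. Replicates 2 and 3 of Flcn KO were within the WT range. The log2 fold change was 0.63 with an SE of 0.26 (limma adjusted p = 0.302), and it was 0.42 without WT replicate 4. Mrpl37 was at 66.1 and 79.3, a log2 fold change of 0.28, which was 0.09 without WT replicate 1. Mrpl39 was at 68.6 and 57.0, a log2 fold change of -0.26 (limma adjusted p = 0.454). Mrpl44, which has a fold like that of RNase III, had 40.9 in WT replicate 1 and 14.7 to 20.4 in the other WT libraries. Its estimate of -0.36 became -0.12 without that library. Mrpl58, which can free a stalled chain by cutting the peptidyl-tRNA bond, was at 30.5 ± 5.83 and 30.7 ± 6.62 (SD, n = 5 each).

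Small-subunit genes with bacterial counterparts numbered 18, of which 14 had positive estimates, with a median of 0.11. Mrps18a, Mrps18b and Mrps18c are 3 mammalian relatives of the single bacterial gene for S18, and in the ribosome their products take different places. Mrps18b had 0, 1, 4, 0 and 4 reads in WT replicates 1 to 5 and 13, 9, 6, 3 and 7 in Flcn KO replicates 1 to 5. In normalized counts these were 0 to 5.09 and 2.97 to 11.1, so the groups overlapped. The log2 fold change was 1.73 with an SE of 0.58 (limma adjusted p = 0.209), and edgeR did not test the gene because its counts were too low. With 47 reads in all, a prior count weighs on this estimate, and the interval ran from 0.45 to 3.02. Mrps18a was at 19.4 ± 7.29 and 23.4 ± 7.75 normalized counts and Mrps18c at 25.5 ± 8.55 and 22.9 ± 9.02 (SD, n = 5 each), with limma log2 fold changes of 0.27 and -0.17 and adjusted p of 0.766 and 0.865. The Mrps18a estimate ran from 0.12 to 0.45 when single libraries were left out.

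Mrps11, the counterpart of bacterial S11 on the platform of the small subunit, was the other low-count gene with a large estimate. Its normalized counts were 1.239, 7.83, 7.64, 10.2 and 6.30 in WT. In Flcn KO libraries they were 17.1, 11.1, 13.3, 14.9 and 10.05. Only WT replicate 4 reached the lowest Flcn KO value, that of replicate 5. The log2 fold change was 1.06 with an SE of 0.39 (limma adjusted p = 0.256), and it was 0.66 without WT replicate 1, which has the lowest value. Mrps12, the decoding-site protein, was at 7.70 ± 2.01 and 9.35 ± 5.88 (SD, n = 5 each). Mrps7, a protein of the small-subunit head, was at 38.3 and 30.9 with a log2 fold change of -0.29 (limma adjusted p = 0.688), which was -0.12 without Flcn KO replicate 4 and -0.15 without WT replicate 2. Mrps9, the gene with the most reads among the 76, was at 110 ± 16.1 and 111 ± 17.8.

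The 10 small-subunit genes found only in mitochondria had 5 positive estimates and a median of 0.02. Mrps22, which is needed for the small subunit in human cells, was at 24.5 ± 6.55 and 24.3 ± 6.46 normalized counts (SD, n = 5 each). Mrps30 was at 24.3 ± 3.68 and 30.6 ± 6.20, a limma log2 fold change of 0.32 with an adjusted p of 0.453. Mrps36 was at 10.9 ± 1.35 and 10.3 ± 4.24.

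Summed over the 28 small-subunit genes, normalized counts were 876 ± 61.7 in WT, from 815 to 970, and 918 ± 40.4 in Flcn KO libraries, from 867 to 969. Over the 48 large-subunit genes they were 1655 ± 58.0, from 1576 to 1703, and 1758 ± 164, from 1537 to 1984 (SD, n = 5 each). The ranges overlapped for both subunits, and the Flcn KO libraries held both the lowest and the highest large-subunit sum, those of replicates 4 and 1. The highest small-subunit sum, 970, was that of WT replicate 1. In the other WT libraries the small-subunit sum ran from 815 to 888, which still overlapped the Flcn KO range. The large-to-small ratio of these sums ran from 1.67 to 2.23 over all 10 libraries and was 1.89 ± 0.119 in WT and 1.92 ± 0.213 in Flcn KO. The mean of log2(normalized count + 1) over the small-subunit genes, which weighs all genes alike, was 4.56 to 4.66 in WT and 4.65 to 4.82 in Flcn KO libraries, with overlap between the highest WT and the lowest Flcn KO library.

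The 2 rRNAs that these proteins bind, mt-Rnr1 of the small and mt-Rnr2 of the large subunit, had limma log2 fold changes of -0.06 and 0.05 (adjusted p = 0.960 and 0.961). Without WT replicate 1 these were 0.24 and 0.29, again without a call. The sources used here do not say how far the library method captures mitochondrial rRNA.

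**Figure D4:**
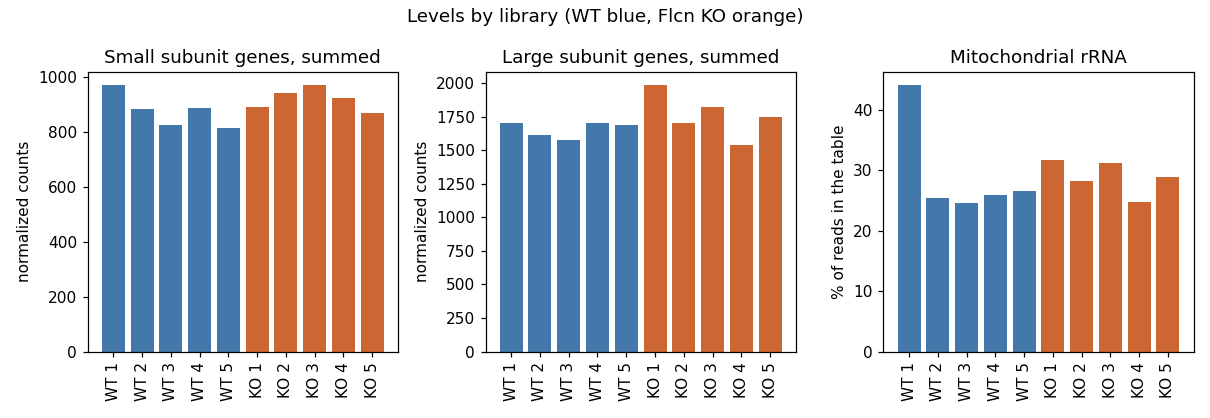
Summed normalized counts of the 28 small-subunit genes (left) and the 48 large-subunit genes (middle), and the percent of reads in the table from mitochondrial rRNA (right), for each of 5 WT (blue) and 5 Flcn KO (orange) libraries. The subunit sums of the groups overlap. WT replicate 1 stands out in the rRNA panel at 44.1%, and its small-subunit sum of 970 is the highest of all libraries shown.

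Levels were compared between genes only per length, as the mean normalized count over the 10 libraries per 1000 bases of the principal transcript in GENCODE vM21. In the large subunit, Mrpl33 (147), Mrpl52 (133) and Mrpl30 (87.5) were highest and Mrpl12 (4.12), Mrpl47 (4.77) and Mrpl51 (5.89) lowest, a range of 35.8-fold. In the small subunit, Mrps9 (78.0), Mrps21 (55.2) and Mrps10 (51.9) were highest and Mrps25 (3.91), Mrps18b (4.18) and Mrps16 (6.72) lowest, a range of 19.9-fold. As background, most of these proteins are held in the ribosome in fixed proportion; protein was not measured here. The order depended on the length used: with coding length, 3 of 3 of the highest large-subunit genes stayed the same but only 1 of 3 in the small subunit. Of the 3 lowest, 1 stayed the same in each subunit. By coding length Mrps25 was at 46.3 and Mrpl51 at 52.6, close to the medians of their subunits, 44.5 and 52.6, so their low place rests on the long transcripts chosen.

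**Figure D5:**
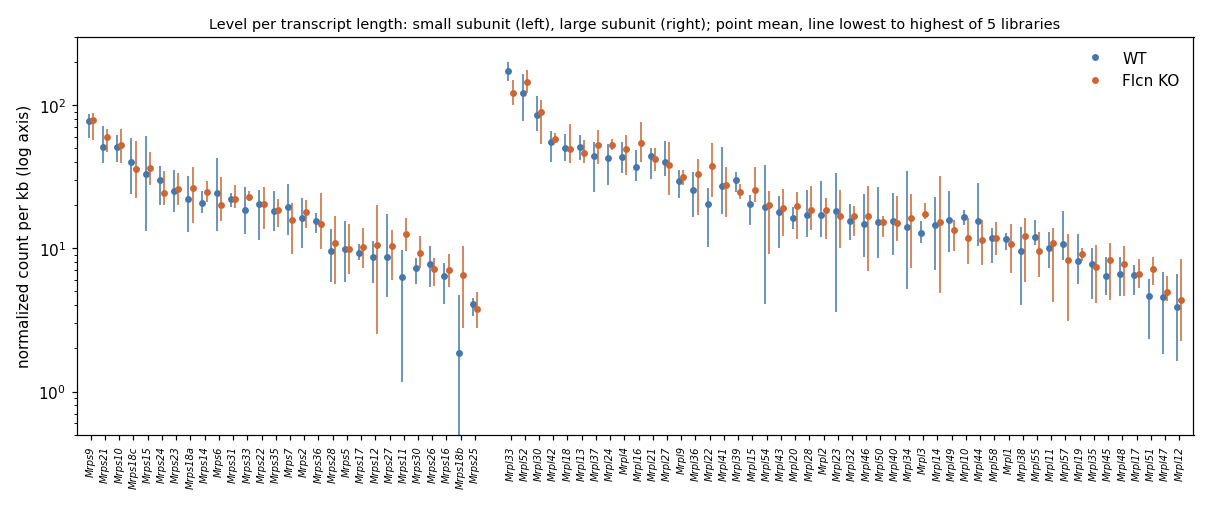
Level per length of the genes of each subunit, as normalized count per 1000 bases of the principal transcript (log axis), with WT and Flcn KO shown apart; points are means and bars run from the lowest to the highest library. The lowest value of WT Mrps18b is 0 and is drawn at the edge of the log axis; Mrpl33 is highest at 147 and Mrps25 lowest at 3.91 over all libraries.

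The 76 genes lie on 17 chromosomes. In GENCODE vM21, 21 of the 76, or 27.6%, start within 1000 bases of another protein-coding gene that runs the other way, against 11.4% of 11075 protein-coding genes of the table. Of these 21, 6 were small-subunit and 15 large-subunit genes. Mrps11 and Mrpl46, a small-subunit and a large-subunit gene, are each other's divergent partner, at log2 fold changes of 1.06 and 0.15. Of the partners, 20 were tested and limma called 0. The partner of Mrps18b, Ppp1r10, had a log2 fold change of -0.01. The sources used here do not say whether reads were counted by strand. For the 19 genes that overlap a protein-coding gene on the opposite strand, among them Mrpl24, Mrpl44, Mrps11, Mrps7 and Mrps30, and the 2 that overlap one on the same strand, Mrps6 and Mrps24, reads of the neighbours could not be told apart. Named pseudogenes that could share reads were found for Mrpl23, Mrpl48 and Mrps36.

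Promoter windows of 250 bases before the start site were taken from RefSeq (GRCm38.p6) for the 68 of 76 genes that matched, beside 9356 genes of the table, and searched on both strands. NRF1, the ETS-family factor GABPA and YY1 are known activators of nuclear genes for mitochondria. The NRF1 motif GCATGCGC was found in 8 windows or 11.8%, against 4.68% of all windows, and 7 of the 8 were of large-subunit genes. They were those of Mrpl9, Mrpl10, Mrpl17, Mrpl22, Mrpl32, Mrpl33, Mrpl39 and Mrps18b. The ETS motif CCGGAAG was found in 16 or 23.5%, against 14.5%, and the YY1 motif AAGATGGCG in 2 or 2.94%, against 1.33%. The CLEAR motif TCACGTGA, which TFEB and TFE3 bind, was found in 2 or 2.94%, those of Mrpl2 and Mrps18c, against 1.59%. Its core CACGTG, counted also inside CLEAR, was found in 5 or 7.35%, against 8.33%, and TATAAA in 4 or 5.88%, against 6.25%. A match of letters shows neither binding nor activity of a factor.

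The windows printed here, 5′ to 3′ along the gene's strand with NRF1, ETS and CLEAR letters in capitals, are of 3 kinds. Mrpl10, Mrpl22, Mrpl33 and Mrps18b hold the NRF1 motif and are among the 8 genes at an unadjusted p under 0.05. They were picked for both. The rest of those 8, Mrpl3, Mrpl16, Mrpl51 and Mrps11, hold no NRF1 match. Mrpl32 holds several NRF1 matches, some of which overlap. Mrpl2 and Mrps18c hold the CLEAR motif, directly followed by an ETS match in Mrps18c, and Mrpl3 is the gene whose groups did not overlap.
Mrpl10, chr11:97041332-97041581, plus strand: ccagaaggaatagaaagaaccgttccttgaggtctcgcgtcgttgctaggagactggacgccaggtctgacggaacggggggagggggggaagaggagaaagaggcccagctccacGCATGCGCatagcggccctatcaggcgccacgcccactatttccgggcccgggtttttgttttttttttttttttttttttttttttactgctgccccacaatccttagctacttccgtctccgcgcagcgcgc
Mrpl22, chr11:58171414-58171663, plus strand: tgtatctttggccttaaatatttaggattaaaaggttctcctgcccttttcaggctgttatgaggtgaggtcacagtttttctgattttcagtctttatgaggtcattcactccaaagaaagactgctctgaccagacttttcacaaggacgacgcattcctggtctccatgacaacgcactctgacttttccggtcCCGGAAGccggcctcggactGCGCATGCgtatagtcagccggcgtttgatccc
Mrpl33, chr5:31613701-31613950, plus strand: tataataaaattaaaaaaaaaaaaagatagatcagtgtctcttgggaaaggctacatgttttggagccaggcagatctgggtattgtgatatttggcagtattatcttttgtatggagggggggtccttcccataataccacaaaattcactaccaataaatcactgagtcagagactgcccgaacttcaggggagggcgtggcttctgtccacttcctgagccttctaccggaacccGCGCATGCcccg
Mrps18b, chr17:35916441-35916690, minus strand: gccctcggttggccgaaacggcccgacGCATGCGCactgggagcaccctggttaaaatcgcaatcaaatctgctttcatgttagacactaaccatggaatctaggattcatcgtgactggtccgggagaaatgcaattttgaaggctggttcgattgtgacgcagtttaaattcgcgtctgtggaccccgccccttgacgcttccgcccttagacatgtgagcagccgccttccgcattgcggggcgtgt
Mrpl32, chr13:14613038-14613287, minus strand: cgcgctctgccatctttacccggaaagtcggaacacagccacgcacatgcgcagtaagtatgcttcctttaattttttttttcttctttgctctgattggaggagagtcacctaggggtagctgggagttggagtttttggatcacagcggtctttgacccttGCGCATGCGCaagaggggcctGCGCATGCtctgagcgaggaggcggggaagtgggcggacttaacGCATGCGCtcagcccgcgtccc
Mrpl2, chr17:46645971-46646220, plus strand: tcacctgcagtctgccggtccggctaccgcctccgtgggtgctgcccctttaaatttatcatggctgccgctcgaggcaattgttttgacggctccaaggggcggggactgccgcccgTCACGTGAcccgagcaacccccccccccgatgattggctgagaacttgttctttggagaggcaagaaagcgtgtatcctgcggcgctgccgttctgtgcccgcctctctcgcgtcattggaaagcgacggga
Mrps18c, chr5:100798509-100798758, plus strand: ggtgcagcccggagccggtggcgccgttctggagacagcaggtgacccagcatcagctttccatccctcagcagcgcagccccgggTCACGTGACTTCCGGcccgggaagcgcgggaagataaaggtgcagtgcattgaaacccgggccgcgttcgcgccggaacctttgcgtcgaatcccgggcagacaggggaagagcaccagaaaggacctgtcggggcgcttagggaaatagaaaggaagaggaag
Mrpl3, chr9:105053018-105053267, plus strand: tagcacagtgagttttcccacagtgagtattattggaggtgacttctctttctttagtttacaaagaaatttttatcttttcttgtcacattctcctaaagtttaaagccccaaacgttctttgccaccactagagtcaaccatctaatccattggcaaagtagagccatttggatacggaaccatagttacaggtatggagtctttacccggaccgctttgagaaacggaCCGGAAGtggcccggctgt

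Genes that share the NRF1 motif lay on both sides of 0. The limma log2 fold change was -0.52 for Mrpl33, -0.51 for Mrpl10, -0.26 for Mrpl39, 0.02 for Mrpl17, 0.11 for Mrpl9, 0.11 for Mrpl32, 0.84 for Mrpl22 and 1.73 for Mrps18b. The 2 genes with the CLEAR motif were at 0.16 for Mrpl2, with normalized counts of 12.5 to 30.6 in WT and 11.9 to 23.2 in Flcn KO libraries, and at -0.17 for Mrps18c. None of these 10 genes passed the test.

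The rest of the pathway was read from lists of other genes, by the same limma test, where 0.944% of all tested genes were called higher and 0.768% lower in Flcn KO. Of 5 further subunits of the mitochondrial ribosome that carry other names, 0 were called. Chchd1, of the small subunit, was at 21.7 and 34.0 (log2 fold change 0.59, limma adjusted p = 0.358) and Gadd45gip1, of the large subunit, at 10.45 and 6.79 (-0.60, limma adjusted p = 0.349). Both were named after their values were seen, and the median over the 5 was -0.02. Of 26 factors that assemble the ribosome 0 were called, and of 18 genes of mitochondrial transcription and RNA processing 0 were called. At an unadjusted limma p under 0.05 there were 1 of 5, 3 of 26 and 3 of 18 genes in these lists, beside 14.0% of all tested genes. edgeR and DESeq2 called 0 in each list.

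Of 19 genes of mitochondrial translation, 0 were called by limma, but Lrpprc, which stabilizes mitochondrial mRNAs, was called higher by edgeR, which called 3.02% of all genes it tested higher. Its normalized counts were 167 to 208 in WT and 228 to 276 in Flcn KO libraries, without overlap, a log2 fold change of 0.41 with an SE of 0.12 (limma adjusted p = 0.140; edgeR adjusted p = 0.0285). Of 22 genes that charge mitochondrial tRNAs, 0 were called by limma and 1, Nars2, the asparaginyl-tRNA synthetase, was called higher by edgeR. It ran from 49.5 to 78.2 in WT and from 78.5 to 137 in Flcn KO libraries, again without overlap, a log2 fold change of 0.67 with an SE of 0.20 (limma adjusted p = 0.151; edgeR adjusted p = 0.0195). DESeq2 and the authors' deposited table also have 1 gene called higher in each of both lists. Lrpprc and Nars2 were the only genes of their lists at an unadjusted limma p under 0.05, beside 14.0% of all tested genes. Both were chosen for naming after their values were seen.

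Of 11 factors that drive mitochondrial biogenesis, 1 was called higher and 0 lower by limma. Ppargc1b, a coactivator of NRF1 and of oestrogen-related receptors, was at 22.8 ± 6.72 in WT and 56.1 ± 7.498 in Flcn KO libraries (SD, n = 5 each), a log2 fold change of 1.304 with an SE of 0.21 (limma adjusted p = 0.0163). Its relative Pprc1 ran from 70.0 to 91.3 and from 95.5 to 142, without overlap, and did not pass (log2 fold change 0.44, limma adjusted p = 0.207). Pprc1 was named after its values were seen. Over the 11 factors only 4 estimates were positive, and the median was -0.05. At an unadjusted limma p under 0.05 there were 3 higher and 1 lower, beside 14.0% of all tested genes in either direction. Ppargc1a and Mycn were not analysed here.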

How the data were processed

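The deposited table holds, for each gene, normalized counts of 10 libraries, made by the authors by dividing reads by a size factor (unit signal), with the authors' base mean, log2 fold change, its error, test score, p-value and adjusted p-value. Per the submitters' processing notes, Trimmomatic 0.36, STAR 2.5.3a, RSEM 1.3.1, DESeq2 1.24.0 and the build mm9 were used; per the labels' protocols, RNA came from a Qiagen RNeasy micro kit and cDNA from a NuGEN low-input method. The sources used here name neither strandedness nor annotation. Every value came back as a whole number of reads (tolerance 0.01 reads) once the size factor was removed.

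Genes reaching a normalized count of 1 in 5 libraries or more entered limma 3.58.1 (R 4.3.3) on log2(normalized count + 1), 5 WT against 5 Flcn KO libraries, threshold 0.05 after Benjamini-Hochberg adjustment. Adding 1 shrinks the fold changes of low genes on this scale. The limma estimates of such genes still lay on either side of the edgeR ones. They were 0.84 against 0.93 for Mrpl22 and 0.28 against 0.05 for Mrpl54. edgeR 4.0.16 and DESeq2 1.42.0 on the recovered reads, a pseudocount of 5, other filters, moderation and scaling, the replicate number as a block, and leaving out each library were alternatives. The fit was also run on simulated data, with known changes put only into genes above the median level. That run does not show the power for lower genes or for changes smaller than those simulated. No libraries of a group agreed within sampling noise (2.08 to 26.7 for chi-square over its degrees of freedom). No batch or date is given by the labels. The members and all gene lists were chosen with earlier results of these data known, so counts and medians over lists carry no test. Genes were named if past the threshold or not overlapping, among the 5 largest estimates each way above the median level, among the 3 highest or lowest per length in a subunit, or on a fixed panel; Mrpl22, Mrps11 and genes given for their intervals, motifs or neighbours were named after their values were seen, and the motif letters were chosen after seeing the data. Transcript lengths and neighbours came from GENCODE vM21 and promoters from RefSeq GRCm38.p6, builds other than that of the authors. Same-numbered libraries of the groups did not deviate together (r of 0.00923 to 0.0325), so the numbers do not pair them.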

Additional observations from a re-analysis of the deposited data

Results flagged for a closer look

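In 10 of 86 groups of 5 libraries examined, the highest or lowest library stood apart from the others by Dixon's test; chance gives about 1 in 20. In WT replicate 1, Mrpl44 was at 40.9 normalized counts, against 14.7 to 20.4 in the other WT libraries, and Mrpl41 at 39.6, against 13.5 to 19.9. The same library held 782462 normalized counts of mt-Rnr1, against 259381 to 295397, 815543 of mt-Rnr2, against 336590 to 377834, and 78.0 of Flcn, against 45.6 to 54.7. In Flcn KO replicate 4, Mrpl11 was at 12.9, against 35.2 to 42.2 in the other Flcn KO libraries, and Mrpl30 at 51.5, against 91.0 to 104. In Flcn KO replicate 1, Mrpl15 was at 154, against 89.2 to 107, Mrpl3 at 82.3, against 63.3 to 67.8, and Mrps9 at 80.6, against 114 to 125.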

How the results depend on the processing

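Under every setting run, edgeR and DESeq2 included, 0 small-subunit and 0 large-subunit genes were called. At an unadjusted p under 0.05 there were 5 to 11 of the members tested. All 76 were tested, except that edgeR and the filter at a normalized count of 10 tested 25 small-subunit and 45 large-subunit genes. Over all tested genes the counts were 139 higher and 113 lower; they were 325 and 273 with trend and robust moderation, 317 and 275 with edgeR, and 379 and 348 with DESeq2. Leaving out each library gave 72 to 134 higher and 44 to 87 lower. The subunit medians were 0.022 to 0.13 (small) and 0.054 to 0.18 (large) when each library was left out. The mt-Rnr2 estimate turned to -0.031 with edgeR and -0.029 with DESeq2. Lrpprc and Nars2 passed with trend and robust moderation (limma adjusted p = 0.0354 and 0.0269), edgeR and DESeq2. With the replicate block, 35 genes were called higher and 24 lower, and Ppargc1b did not pass (1.304, limma adjusted p = 0.0661); 1 of 5 WT libraries correlated best with its own number, and no other call among the genes named changed.

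Estimates near 0 changed sign when a library was left out. Their ranges were -0.12 to 0.10 for Mrpl58, -0.076 to 0.33 for Mrpl11, -0.079 to 0.29 for Mrpl41, -0.019 to 0.24 for Mrpl30, -0.13 to 0.30 for Mrpl12, -0.057 to 0.38 for Mrpl47 and -0.19 to 0.12 for Mrps22. They were -0.077 to 0.13 for Mrps9, -0.0499 to 0.14 for Mrps10, -0.21 to 0.43 for Mrps12, -0.0498 to 0.30 for Mrps28, -0.011 to 0.22 for Mrps16, -0.15 to 0.24 for mt-Rnr1 and -0.033 to 0.29 for mt-Rnr2. The cause was not tested. The per-length alternatives were chosen after seeing the data. Depth limits the low genes: Mrps18b rests on 47 reads in all.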
